A study of Mus musculus with 16 samples.

Results

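The comparison described here is between the cell sorts of mice that received only filtered air (vehicle). It uses 8 of the 16 libraries of the series: the 4 titled GFP+ and the 4 titled GFP- of the vehicle group, paired by pool. The mice were S100a5-tauGFP reporters on C57BL/6, of both sexes and 7 to 12 weeks old, and the reporter was carried by all groups. They spent 40 h one to a chamber in clean air at 3.1 L per minute, with 10 s pulses of filtered air every 20 min after the first 26 h. The other 8 libraries come from mice pulsed with isoamyl acetate, an ester odorant, in the same way. Cells of the dissected and dissociated olfactory mucosa were sorted by fluorescence, and a pool of 3 mice gave 1 library titled GFP+ and 1 titled GFP-, so that n = 4 pools per exposure. No label states the sort gates or the zygosity of the reporter. S100a5 rather than a pan-neuronal gene drives GFP, so cells of both sorts can be olfactory neurons.

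The groups follow the sample titles. In 16 of 16 samples the labels' cell type entry carries the other GFP sign, and S100a5 itself was higher in the libraries titled GFP-, as described next. Every difference below is log2 signal in titled GFP+ minus titled GFP-, so a positive value means more signal in the libraries with less S100a5. A difference of 1 is 1 doubling.

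The olfactory epithelium holds sensory neurons, each of which normally expresses a single odorant receptor gene, together with the basal progenitors that replace them, sustentacular supporting cells, microvillar cells and glands. Odor binding raises cyclic AMP in the cilia of a mature neuron and opens the Cnga2 channel, and over hours to days such activity changes the level of a set of genes. S100a5, a calcium-binding protein of mature olfactory neurons, is one of the genes known to rise with activity.

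The 22206 tested probe sets had a median of 6.48 to 6.49 in the 4 vehicle libraries titled GFP-. It was 6.79 to 6.89 in those titled GFP+. Between 56.9% and 64.2% of probe sets lay above their array's median negative control signal. That control median was 5.17 to 5.67 and is called background below. The 95th percentile of the negative controls was 9.39 to 10.09. A signal said to be above background can therefore still lie within the range of the negative controls, and its difference is less certain. Deviations from the group mean were shared within a pool (r = 0.24 to 0.41 across 13540 probe sets in the 4 vehicle pools), and each library titled GFP+ correlated best with the library titled GFP- of its own number. The Y-linked gene Eif2s3y, looked at after its values were seen, read 9.89 and 10.55 in the titled GFP+ libraries of pools 1 and 2 and 10.04 and 10.30 in their titled GFP- libraries, against 2.53 to 2.80 in the 4 libraries of pools 3 and 4. So the sorts of a pool matched in this gene, while pools differed. In limma with the pool as a block, 21.1% of the tested probe sets differed between the vehicle sorts (4675, adjusted p below 0.05, called below), 2421 higher and 2254 lower in titled GFP+. The background rates are therefore 10.9% higher and 10.2% lower, and 11.3% and 12% of probe sets had all 4 titled GFP+ libraries above or below all 4 titled GFP- libraries. The balance depends on the scaling: the median difference of all probe sets was -0.13, and higher calls made up 51.8% of all calls as deposited, 82.2% when each array was centred on its mature neuron markers and 11% when centred on its median.

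S100a5 was lower in titled GFP+ in all 4 pools. Its log2 signal was 15.66, 15.55, 14.69 and 14.95 in the titled GFP+ libraries of pools 1 to 4, and 16.51, 16.59, 16.14 and 16.33 in their titled GFP- libraries. The groups did not overlap, and both were near the top of the scale of the array. The difference was -1.18 (SE 0.13, limma adjusted p = 9.79e-05), a 2.26-fold lower signal, and -0.95 after centring on mature neuron markers. S100a5 thus separates libraries with more and with less of its transcript, but both hold it in quantity.

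Of 10 measured genes that change with odor stimulation in olfactory neurons, S100a5 among them, 7 were lower and 1 higher, against 10.2% and 10.9% of all probe sets, and 4 did not overlap between the sorts. The median difference was -0.98 against -0.13 over all probe sets. After centring on mature neuron markers the counts were 6 lower and 1 higher, against 3.44% and 15.8% of all probe sets. The list was chosen with earlier results of these data known, and S100a5 drives the reporter used for the sort. These counts therefore describe the list and are not a test of it. Pcp4l1, which encodes a small neuronal protein related to Pcp4, read 13.89, 14.30, 12.99 and 13.74 in titled GFP+ and 15.13, 15.49, 15.35 and 15.43 in titled GFP-. That is a 3.07-fold lower signal (-1.62, SE 0.23, limma adjusted p = 0.000535), lowest in pool 3, where S100a5 was lowest too.

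Lrrc3b, a leucine-rich repeat membrane protein gene, read 12.14, 13.75, 11.67 and 13.12 in titled GFP+ against 13.67, 14.75, 13.72 and 14.65 in titled GFP-. Here the groups overlapped because pools 2 and 4 read above pools 1 and 3 in both sorts, yet titled GFP+ was the lower sort in all 4 pools, with pool differences of -0.99 to -2.04, and the paired difference was -1.52 (SE 0.16, limma adjusted p = 7.11e-05). Pcdh10, a protocadherin of cell contacts, showed the same layout of pools in part: 8.42, 8.46, 7.17 and 7.44 in titled GFP+ and 9.17, 9.86, 7.99 and 9.26 in titled GFP-. It was 2.3-fold lower (-1.20, SE 0.18, limma adjusted p = 0.00103), with pool 3 low in both sorts. Kirrel2 and Kirrel3 encode homophilic adhesion proteins that olfactory neurons are known to express in complementary, activity-linked patterns. Kirrel2 was lower, at -0.87 (SE 0.18, adjusted p = 0.00576), and Kirrel3 was the 1 member called higher, at 0.53 (SE 0.16, adjusted p = 0.0428). The Kirrel3 call rested on the full set of pools, since its adjusted p was 0.17 without pool 1, 0.121 without pool 2 and 0.108 without pool 4.

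**Figure D1:**
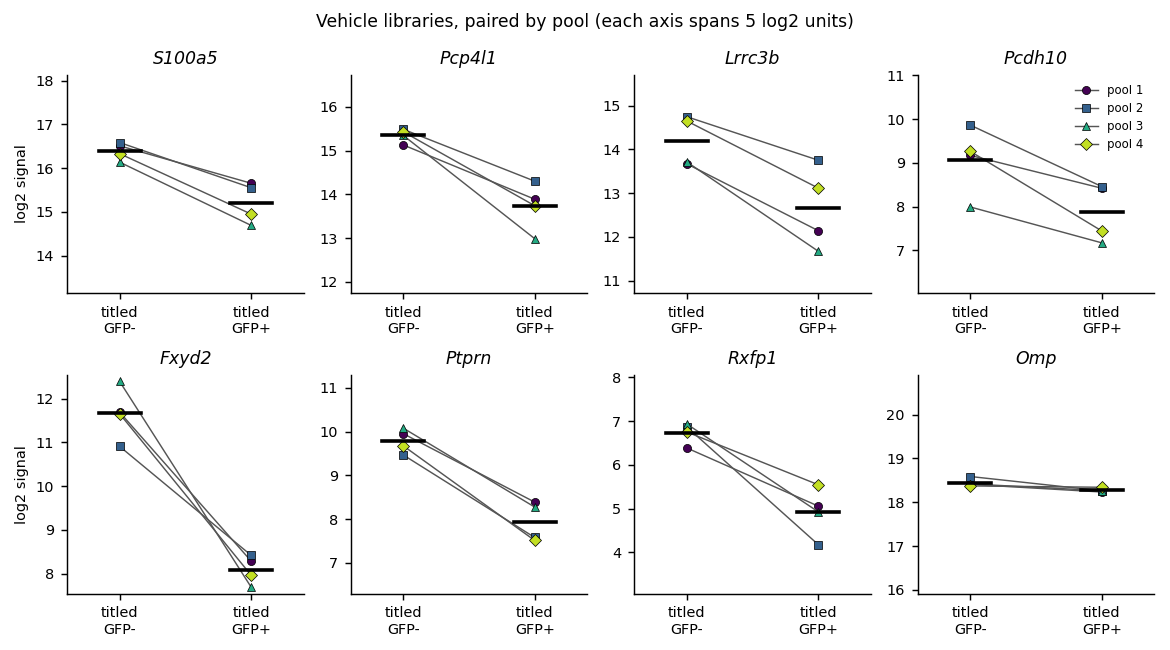
Log2 signal (vertical axes, 5 units each) of 8 genes in the vehicle libraries titled GFP- and titled GFP+. Each symbol is a library, lines join the 2 libraries of a pool and black bars are group means (n = 4). S100a5, Pcp4l1, Lrrc3b, Pcdh10, Fxyd2, Ptprn and Rxfp1 fall from titled GFP- to titled GFP+ in 4 of 4 pools, while Omp stays within 18.23 to 18.59.

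The sequences just before the start sites of 3 of these genes are shown because the genes move with S100a5, the gene that drives the reporter. They are the 250 bases upstream of the RefSeq start site (build GRCm38.p6): S100a5 at chr3:90608272-90608521 (plus strand), Pcp4l1 at chr1:171196269-171196518 (minus strand) and Pcdh10 at chr3:45378148-45378397 (plus strand). Capitals mark the cyclic AMP response element core, TGACGT on either strand, which is the letters TGACGT or ACGTCA.
S100a5: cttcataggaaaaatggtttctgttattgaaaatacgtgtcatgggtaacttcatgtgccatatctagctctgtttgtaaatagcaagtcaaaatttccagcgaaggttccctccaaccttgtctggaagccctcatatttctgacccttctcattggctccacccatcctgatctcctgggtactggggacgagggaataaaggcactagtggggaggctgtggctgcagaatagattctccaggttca
Pcp4l1: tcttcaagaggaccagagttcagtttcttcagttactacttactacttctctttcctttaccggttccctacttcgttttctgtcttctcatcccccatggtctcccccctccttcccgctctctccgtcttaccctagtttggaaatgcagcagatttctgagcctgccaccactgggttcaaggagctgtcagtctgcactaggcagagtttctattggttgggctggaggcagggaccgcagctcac
Pcdh10: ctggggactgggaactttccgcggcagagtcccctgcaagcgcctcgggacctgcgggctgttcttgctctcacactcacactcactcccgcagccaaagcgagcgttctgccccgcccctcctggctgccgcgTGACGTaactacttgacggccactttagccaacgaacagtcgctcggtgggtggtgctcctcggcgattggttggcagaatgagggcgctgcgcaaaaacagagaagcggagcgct
The Pcdh10 window holds this core 116 bases before the start site, and the S100a5 and Pcp4l1 windows hold neither it nor the other motifs searched. Those were the full cyclic AMP element TGACGTCA, which contains the core, the AP-1 site TGANTCA, the EGR site GCGTGGGCG, the EBF site (TCCC and GGGA around any pair of bases) and the homeodomain site TAATTA, each on both strands. Windows were held for 15691 of the 19505 measured genes. Among all promoters of the table, 6.47% hold the core and 1.55% the full element. The full element was in 2.88% of the promoters of genes other than receptors called lower in titled GFP+, 1.38% of those called higher and 2.09% of those not called. For the core the shares were 8.84%, 6.5% and 8.14%. These are descriptions of letters in short windows.

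Both sorts held mature olfactory neurons by their defining markers. Omp, the olfactory marker protein gene, read 18.23, 18.26, 18.27 and 18.34 in titled GFP+ and 18.41, 18.59, 18.42 and 18.37 in titled GFP-. The sorts were -0.17 apart (SE 0.11, adjusted p = 0.282). The mean over 16 mature neuron markers ran from 15.05 to 15.26 in titled GFP+ and from 15.28 to 15.46 in titled GFP-, and 2 were called lower and 1 higher (median -0.15). Of 18 genes of the transduction cascade 3 were lower (16.7%) and 1 higher (5.56%), against 10.2% and 10.9% of all probe sets. Pde1c, the ciliary phosphodiesterase that breaks down cyclic AMP, was lower at -0.66 (SE 0.11, adjusted p = 0.00205), and Ano2, the calcium-activated chloride channel that amplifies the receptor current, at -0.45 (SE 0.10, adjusted p = 0.00853). The Ano2 value after centring on mature neuron markers was -0.22 (adjusted p = 0.16).

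Apart from odorant receptors, the genes lower in titled GFP+ moved far less than those that were higher. Of 1549 such genes called lower, 85 differed by more than 1 and 2 by more than 3, whereas of 1951 called higher 1258 differed by more than 1 and 377 by more than 3. The largest fall was that of Fxyd2, which encodes the gamma subunit of the sodium pump. It read 8.29, 8.42, 7.69 and 7.96 in titled GFP+ and 11.69, 10.91, 12.39 and 11.65 in titled GFP-, an 11.9-fold lower signal (-3.57, SE 0.38, limma adjusted p = 8.58e-05). The pool with the highest titled GFP- value, pool 3, had the lowest titled GFP+ value.

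Avp, Ptprn, Rxfp1 and Caly were also among the 10 largest falls outside the odorant receptors without overlap. Avp, the vasopressin gene, read 6.55 to 6.79 in titled GFP+ and 7.93 to 9.08 in titled GFP-, a difference of -1.96 (SE 0.26). Ptprn, a dense-core vesicle protein of neuroendocrine cells, fell by 1.86 (SE 0.15), from 9.47 to 10.08 down to 7.51 to 8.39. Rxfp1, the relaxin receptor, was at background in all but 1 titled GFP+ library (4.18 to 5.55) and above it in all 4 titled GFP- libraries (6.39 to 6.94), a difference of -1.81 (SE 0.32). Caly, a regulator of endocytosis also known as calcyon, differed by -1.69 (SE 0.18). The largest limma adjusted p of these 4 was 0.00262, and none of the 4 overlapped between sorts. After centring on mature neuron markers the differences ran from -1.46 to -1.73.

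Ion channel genes were lower more often than higher: of 19 measured voltage-gated and potassium channel genes 8 were lower and 1 higher, against background rates of 10.2% and 10.9%. After centring on mature neuron markers 2 were lower and 1 higher, against 3.44% and 15.8% of all probe sets. Kcnmb3, an auxiliary subunit of the large-conductance potassium channel, read 13.05, 13.70, 13.40 and 14.00 in titled GFP+ and 14.73, 15.28, 15.08 and 15.56 in titled GFP-. It was 3.08-fold lower (-1.62, SE 0.14, adjusted p = 2.12e-05, and -1.40 after that centring). Kcng1, a silent potassium channel subunit outside that list, differed by nearly the same amount in each pool (-1.73 to -1.90) although pools 2 and 4 read 9.84 to 11.67 and pools 1 and 3 8.22 to 10.20. Cacna1c, an L-type calcium channel subunit, was lower at -0.62 (SE 0.12, adjusted p = 0.0044). Kcnh2 was lower at -0.59 (SE 0.11, adjusted p = 0.00428), with adjusted p = 0.0591 after the centring. The 1 channel gene called higher was Kcnk1, a background potassium channel, at 1.37 (SE 0.25, adjusted p = 0.0035).

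Genes of axon sorting had calls in both directions. Of 23 adhesion genes 6 (26.1%) were lower and 3 (13.0%) higher, and of 21 guidance genes 5 (23.8%) were lower and 2 (9.52%) higher. Over all probe sets 10.2% were lower and 10.9% higher, so the higher calls were near that share. After centring on mature neuron markers the counts were 4 lower and 3 higher for adhesion, and 3 lower and 4 higher for guidance. That centring gave 3.44% lower and 15.8% higher over all probe sets. Pcdh7, a protocadherin, read 10.74 to 10.99 in titled GFP+ and 12.18 to 12.43 in titled GFP-, with each pool at -1.42 to -1.44 (SE 0.10, adjusted p = 6.25e-06). Pcdh17 was lower at -1.03 (SE 0.14), and the ephrin receptors Epha5 and Epha7 at -1.04 (SE 0.15) and -0.70 (SE 0.12). Plxna3, a semaphorin co-receptor, was lower at -0.76 (SE 0.12) and Sema7a, a membrane-anchored semaphorin, at -0.59 (SE 0.12), which became -0.36 (adjusted p = 0.0546) after centring on mature neuron markers. Alcam, an immunoglobulin-family adhesion protein, went the other way: 9.22 to 9.57 in titled GFP+ against 7.25 to 7.64 in titled GFP- (1.90, SE 0.21, adjusted p = 0.000106). Immune cells also express Alcam, and their markers were higher in the same libraries, as given below. The part of those cells in this difference was not tested.

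Synaptic and ciliary genes had small negative medians. Of 21 synaptic vesicle and release genes 4 were lower and 0 higher (median -0.28), led by Syn2 (-0.77, SE 0.11, adjusted p = 0.000648) and Sv2b (-0.64, SE 0.12, adjusted p = 0.00473), both vesicle proteins. Of 23 genes of cilium transport 3 were lower and 0 higher (median -0.23), and of 21 subunits of oxidative phosphorylation 3 were lower and 0 higher (median -0.22). The lower shares of these lists were 19.0%, 13.0% and 14.3%, against 10.2% of all probe sets, whose median was -0.13. After centring on mature neuron markers the medians were -0.06, 0.00 and 0.00. The lists then had 2, 0 and 0 members lower, against 3.44% of all probe sets. None of 12 markers of the dorsal and ventral epithelial zones was called by limma, with a median of -0.05.

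Odorant receptors differed between the sorts more widely than other genes. Of 1080 measured receptor genes 264 (24.4%) were higher and 468 (43.3%) lower in titled GFP+, against 10.9% and 10.2% of all probe sets, and 256 and 448 did not overlap, against 11.3% and 12%. The standard deviation of the differences was 2.49 over receptors and 0.85 over other named genes. Rises were fewer and larger than falls: 89 receptors were higher by more than 4 and 33 by more than 6, while 18 were lower by more than 4 and 0 by more than 6. Receptors called higher had a median difference of 3.13 and those called lower of -1.95, and in single pools these medians ran from 2.75 to 3.25 and from -1.81 to -2.20. In bulk samples, fewer neurons that express a receptor and less receptor RNA in each neuron cannot be told apart.

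Olfr1507, the receptor also known as MOR28, had the largest rise. It read 14.65, 13.43, 14.97 and 14.50 in titled GFP+ and 6.30, 5.39, 6.07 and 5.83 in titled GFP-, where 3 of the 4 libraries were just above background (8.49, SE 0.18, limma adjusted p = 1.13e-08). Olfr1297 read 15.16 to 15.85 in titled GFP+ and 6.88 to 7.96 in titled GFP- (8.09, SE 0.31). Olfr99, Olfr1447 and Olfr393 were likewise above background in all 8 libraries and higher by 8.15 (SE 0.32), 8.12 (SE 0.37) and 7.96 (SE 0.27). Olfr1213 was the most uneven of the leading receptors, with titled GFP- values of 5.54, 8.35, 6.13 and 3.50 against 13.41 to 14.65 in titled GFP+ (8.38, SE 0.85, adjusted p = 5.97e-05).

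Olfr390, Olfr1406 and Olfr826 were above background in 2, 1 and 1 of the titled GFP- libraries and in all titled GFP+ libraries, where they reached 13.15 to 14.27, 12.99 to 13.45 and 12.44 to 12.84. Olfr1446 was above background in no titled GFP- library. For such genes the fold is given as a lower limit, set against the higher of background and the gene's own signal, and Olfr1446 was at least 89.3-fold higher in titled GFP+ (adjusted p = 1.36e-07). In all, 39 receptors were above background in the 4 titled GFP+ libraries and in none titled GFP-, and 16 the other way round.

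Olfr309 had the largest fall, with 9.29, 8.43, 9.72 and 9.49 in titled GFP+ and 15.06, 14.82, 15.62 and 15.28 in titled GFP-. Pool 2 was lowest in both sorts, and the sorts were 62.3-fold apart (-5.96, SE 0.30, limma adjusted p = 4.5e-07). Olfr536 (-5.80, SE 0.21) and Olfr533 (-4.88, SE 0.15) had similar levels, 13.98 to 14.64 and 14.06 to 14.87 in titled GFP-, and kept up to 9.38 and 9.87 in titled GFP+. Olfr613 and Olfr481 were above background in no titled GFP+ library and were at least 31.3-fold and 18.8-fold lower there. Olfr372 was above background in 1 titled GFP+ library (5.93 in pool 4) and read 9.41 to 11.52 in titled GFP- (-5.46, SE 0.25). Olfr110, Olfr101, Olfr494 and Olfr211 completed the 10 largest falls, at -4.86, -4.80, -4.77 and -4.43. In titled GFP+ these 4 read 5.45 to 10.08, above background in every library.

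Receptor genes lie in clusters, and members of a cluster often differed in direction. With a new cluster started wherever the next receptor gene was over 1000000 bases away in the RefSeq order, there were 49 clusters, 29 of them with 5 or more receptors. Calls in both directions occurred in 25 of these 29, and 23 had a median below 0. Over all 1080 receptors 24.4% were higher and 43.3% lower, with a median of -0.48, and the cluster counts below stand against these. Among 488 neighbouring pairs with both receptors called, 320 (65.6%) went the same way, and over all pairs of called receptors, neighbours or not, 53.8% did. Among clusters of 5 or more, the 15 receptors from Olfr310 to Olfr292 on chromosome 7 had the highest median, with 11 higher and 1 lower (median 2.15), yet the 1 lower was Olfr309, the largest fall of all. Olfr307 in the same run was at least 6.81-fold higher. The 19 receptors from Olfr522 to Olfr541, also on chromosome 7, had 15 lower and 1 higher (median -2.05), with Olfr536 and Olfr533 among them. The 94 receptors from Olfr160 to Olfr986 on chromosome 9 had 57 lower and 17 higher (median -1.42). On chromosome 14 the 36 receptors that end with Olfr1507 had 24 lower and 7 higher (median -1.44). The 8 receptors from Olfr1416 to Olfr12 on chromosome 1 had 7 lower and 0 higher, all small, the largest being Olfr1411 at -1.65 (SE 0.16). The 120 class I receptors from Olfr543 to Olfr692, a group that resembles fish receptors, had 52 lower (43.3%) and 22 higher (18.3%). That lower share was the share of all receptors, and Olfr677 was among those higher, at 7.58 (SE 0.23).

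**Figure D2:**
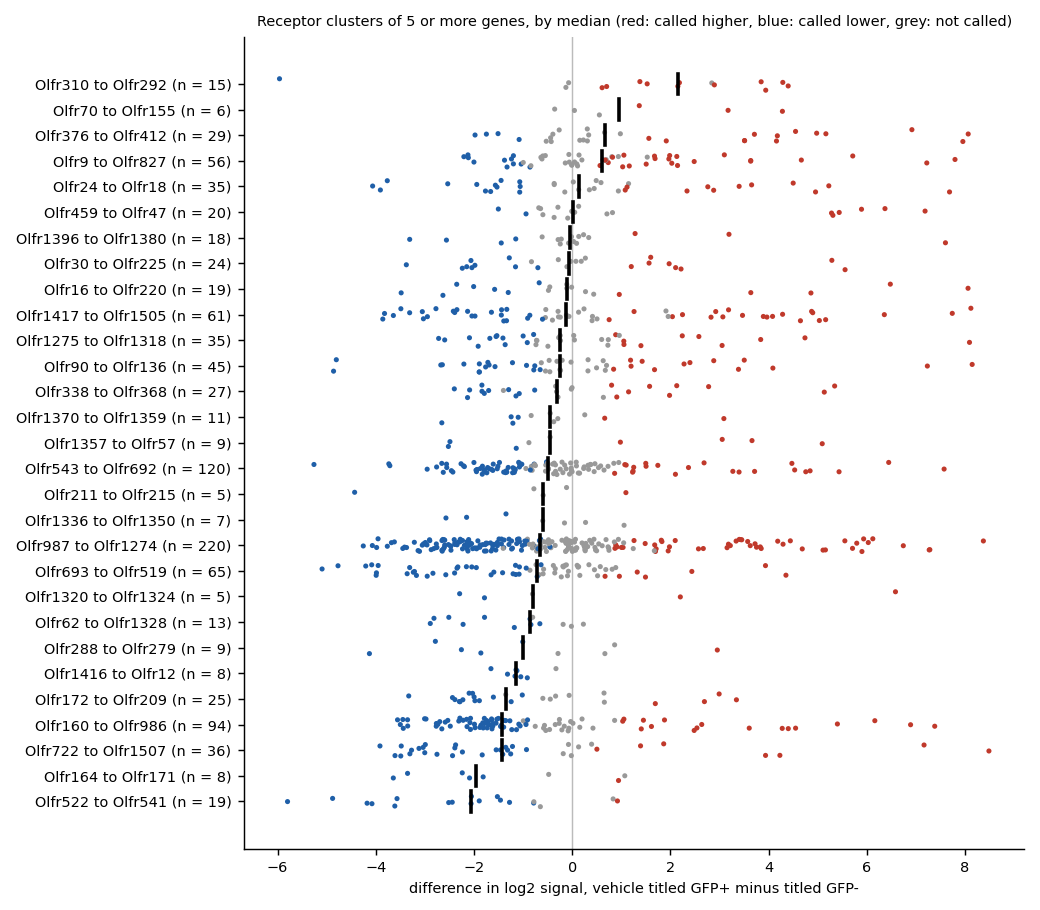
Difference in log2 signal (horizontal axis, vehicle titled GFP+ minus titled GFP-) of the receptors in the 29 clusters of 5 or more genes, ordered by their median (black bar). Points are receptor genes coloured by call. The run from Olfr310 to Olfr292 has the highest median, 2.15, with Olfr309 alone at -5.96, and the run from Olfr522 to Olfr541 the lowest, -2.05.

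Among neighbouring pairs called in opposite directions, the 5 with the widest gap are given here, so their opposite calls follow from the choice. Olfr99 (8.15) lies beside Olfr101 (-4.80), Olfr1447 (8.12) beside Olfr1448 (-3.31), and Olfr1297 (8.09) beside Olfr1298 (-2.60). Olfr728 (7.17) lies between Olfr727 (-2.99) and Olfr729 (-3.04), so that in this run of 3 the middle gene read 12.54 to 12.72 in titled GFP+ while both flanking genes read 9.52 to 12.56 there and 12.35 to 15.24 in titled GFP-. Among pairs called in the same direction, Olfr1101 and Olfr1102 were closest, at -2.60 and -2.61. The next 2 pairs each held a receptor above background in no titled GFP+ library, so how alike they were cannot be read. Olfr479 was at -1.08 (SE 0.30) beside Olfr480, for which no fold is given because it was above background in only 2 titled GFP- libraries, and both calls were lost without pool 2, pool 4 or with mature marker centring. Olfr1122 was at -1.76 (SE 0.17) beside Olfr1121, at least 2.67-fold lower. Probe sets of closely related receptors can share signal, and the labels do not say how the array design separates them.

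The 250 bases upstream of the RefSeq start (GRCm38.p6) are shown for 2 of these pairs, to set side by side neighbours whose transcripts went opposite ways. Olfr99 is at chr17:37280419-37280668 (minus strand) and Olfr101 at chr17:37300485-37300734 (minus strand); Olfr1297 is at chr2:111622073-111622322 (minus strand) and Olfr1298 at chr2:111645996-111646245 (minus strand). Capitals mark the EBF site in Olfr99, the AP-1 site in Olfr1297 and Olfr1298, and the homeodomain site TAATTA in Olfr1297.
Olfr99: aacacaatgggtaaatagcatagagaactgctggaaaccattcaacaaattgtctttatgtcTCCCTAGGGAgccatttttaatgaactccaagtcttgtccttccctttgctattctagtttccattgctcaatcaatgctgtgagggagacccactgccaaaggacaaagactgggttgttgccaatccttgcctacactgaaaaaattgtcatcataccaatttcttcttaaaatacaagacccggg
Olfr101: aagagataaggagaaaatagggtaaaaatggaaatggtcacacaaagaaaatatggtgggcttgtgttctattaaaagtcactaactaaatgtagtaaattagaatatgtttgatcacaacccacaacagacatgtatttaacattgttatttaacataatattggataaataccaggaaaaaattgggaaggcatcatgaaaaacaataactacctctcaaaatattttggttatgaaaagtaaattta
Olfr1297: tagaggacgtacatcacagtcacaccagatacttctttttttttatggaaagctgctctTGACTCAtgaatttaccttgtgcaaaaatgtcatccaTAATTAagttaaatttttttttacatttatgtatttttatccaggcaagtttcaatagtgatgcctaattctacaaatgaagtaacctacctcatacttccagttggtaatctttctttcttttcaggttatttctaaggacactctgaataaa
Olfr1298: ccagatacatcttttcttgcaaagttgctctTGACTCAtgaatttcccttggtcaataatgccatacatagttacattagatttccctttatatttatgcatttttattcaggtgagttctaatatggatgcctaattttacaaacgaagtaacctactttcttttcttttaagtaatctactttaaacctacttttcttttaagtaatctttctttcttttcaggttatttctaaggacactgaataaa
In a global alignment the Olfr1297 and Olfr1298 windows were identical in 190 of 280 columns (67.9%), against 50.2% for Olfr99 with Olfr101 and 46.4% for the unrelated windows of Olfr99 and Olfr1297. The more alike pair thus still differed by 8.09 against -2.60. EBF and homeodomain sites are known elements of receptor promoters. TAATTA was in 19.5% of the promoters of receptors called higher, 16.4% of those called lower and 18.9% of those not called, against 4.84% of all promoters in the table. The EBF letters were in 2 of 221, 1 of 408 and 1 of 296, and in 0.779% of all promoters, and the AP-1 letters in 9.5%, 10.5% and 12.2%, and in 6.75% of all. These shares describe the windows only. Promoter here means the bases before the RefSeq start, and whether transcription of each receptor begins there was not tested.

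Trace amine-associated receptors, a separate receptor family of dorsal olfactory neurons, moved in both directions as well: of 15 measured, 9 were lower and 5 higher. Counts here stand against 10.2% of all probe sets called lower and 10.9% called higher. Taar2 was higher at 4.23 (SE 0.38, adjusted p = 2.38e-05), from 5.33, 7.16, 5.82 and 6.51 in titled GFP- to 10.31, 9.80, 10.27 and 11.38 in titled GFP+. Taar9 was lower at -3.19 (SE 0.24, adjusted p = 8.17e-06), and its pools ranged widely in both sorts: 8.37, 6.99, 10.77 and 10.02 in titled GFP+ and 11.87, 10.75, 13.80 and 12.49 in titled GFP-. Taar3 and Taar4 also read highest or near highest in pool 3 and were lower at -2.22 (SE 0.30) and -2.37 (SE 0.27). The Taar7 genes split, with Taar7b lower at -2.05 (SE 0.20) and Taar7d and Taar7f higher at 1.44 (SE 0.22) and 1.54 (SE 0.24), but these genes are close copies and their probe sets may share signal. Vomeronasal receptors were near background, with 186 of 199 type 1 and 112 of 120 type 2 receptors above it in no titled GFP+ library, and their 23 and 20 lower calls are not read further. Of 9 markers of atypical olfactory neurons that signal through cyclic GMP or Ms4a proteins 3 were higher, including the phosphodiesterase Pde2a at 3.34 (SE 0.25, adjusted p = 8.06e-06) and Ms4a6b, which macrophages also express, at least 3.68-fold higher. In that list 4 of 9 genes were above background in no library of a group. Its median was 0.33, or 0.00 with such genes set to their lower limit, or to 0 where none can be given.

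Many transcripts of younger cells of the neuronal lineage were higher in titled GFP+. The base for the counts here is 10.9% of all probe sets called higher and 10.2% called lower. Of 20 immature neuron markers 10 were higher, 1 was lower and 9 were not called. The typical member moved little: half-way through the ranked list the difference was 0.43, against -0.13 for all probe sets. Its mean level, on which large single rises weigh more, was 11.59 to 12.09 in titled GFP+ and 10.23 to 10.38 in titled GFP-. Nhlh1, a transcription factor of newly formed neurons, read 9.64, 10.26, 9.69 and 9.64 in titled GFP+ and 4.64, 3.97, 4.59 and 5.09 in titled GFP-, where it was above background in no library, and was at least 19.8-fold higher (adjusted p = 5.82e-06). Gng8, a G protein subunit of immature neurons, was higher at 4.69 (SE 0.28) and Dpysl3, a protein of growing axons, at 3.54 (SE 0.22). Cxcr4, which leukocytes express too, was higher at 5.73 (SE 0.42). The 1 marker called lower was Trib3 at -0.89 (SE 0.13, adjusted p = 0.000851). Of 12 globose basal progenitor markers 8 were higher and 0 lower, among them Kit, the stem cell factor receptor, which mast cells share, at least 7.66-fold. Sox11 was higher at 2.35 (SE 0.23) and Sox2, which is also in the sustentacular list, at 1.60 (SE 0.19). In this list 7 of 12 genes were above background in no library of a group. The list median was 1.09. It was 0.47 with such genes set to their lower limit, or to 0 where none can be given. Cell cycle genes were higher in 17 of 19 and lower in 0 (median 2.26, or 1.88 with the same limits). Ube2c, of the anaphase-promoting machinery, was at least 15.8-fold higher, and the proliferation antigen Mki67 read 4.34 to 5.60 in titled GFP- and 9.86 to 11.31 in titled GFP+ (5.44, SE 0.46). Blood cell precursors also divide, and their share in these differences was not tested.

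Immediate-early genes, which many cell types switch on within minutes of a stimulus, were higher in titled GFP+ and not in the libraries with more S100a5. Of 26 measured, 18 were higher and 0 lower, against 10.9% and 10.2% of all probe sets, with a median of 1.62. The list's mean level was 9.36 to 10.26 in titled GFP+ and 7.57 to 8.06 in titled GFP-. Egr1, a zinc finger transcription factor, read 13.47, 14.29, 12.72 and 13.69 in titled GFP+ and 8.04, 7.84, 6.93 and 8.31 in titled GFP- (5.76, SE 0.25, adjusted p = 1.8e-07). Its relative Egr2 was higher at 6.02 (SE 0.27), the mRNA-destabilising protein gene Zfp36 at 5.81 (SE 0.52) and the antiproliferative gene Btg2 at 5.32 (SE 0.25). Pool 3 had the lowest titled GFP+ value of all 4 genes, as it did for S100a5. The Btg2 window (chr1:134079156-134079405 (minus strand), GRCm38.p6, RefSeq) is shown as a full cyclic AMP element, in capitals, in a gene that went against S100a5. It lies 166 bases before the start site.
Btg2: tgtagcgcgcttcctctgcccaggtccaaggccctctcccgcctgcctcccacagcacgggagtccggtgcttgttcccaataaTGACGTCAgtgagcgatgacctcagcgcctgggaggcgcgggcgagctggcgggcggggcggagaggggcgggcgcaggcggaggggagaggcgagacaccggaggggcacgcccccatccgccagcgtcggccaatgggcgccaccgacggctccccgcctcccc
Neutrophils and other blood cells express these genes too, and their markers, given below, moved with them. The part of those cells was not tested.

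Transcripts of epithelial cells other than neurons were also higher in titled GFP+. Over all probe sets 10.9% were higher and 10.2% lower. Sustentacular markers were higher in 12 of 17 and lower in 0 (mean level 8.10 to 8.74 against 6.66 to 6.97), including the sulfotransferase Sult1c1, which read 11.47, 10.62, 10.34 and 11.13 in titled GFP+ and 8.26, 7.71, 6.08 and 8.08 in titled GFP- (3.36, SE 0.20), and Ezr, which links microvillus membranes to actin, at 3.12 (SE 0.30). Among 30 xenobiotic enzymes 12 were higher and 0 lower. Cyp2a5 and Cyp2f2, cytochromes of supporting and gland cells, stood at 13.73 to 14.87 and 12.49 to 13.40 in titled GFP+ and kept 11.13 to 11.88 and 10.16 to 10.90 in titled GFP-, so both sorts held such transcripts. Of 18 Bowman gland and secreted nasal protein genes 6 were higher, among them Sox9 at 4.60 (SE 0.17), Bpifb3 at 2.83 (SE 0.36) and Gpx6 at 2.10 (SE 0.26). The list median was 0.53, or 0.00 with limits as above, and 10 of 18 genes were above background in no library of a group. Its leading member Ltf stood far above that median (7.68, SE 0.26), and is also a neutrophil granule protein.

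Both kinds of microvillar cell had most of their markers higher, against 10.9% of all probe sets called higher and 10.2% called lower. Markers of Trpm5 tuft-like cells were higher in 17 of 19 and lower in 0 (median 1.73, or 1.35 with such limits), led by the leukotriene pathway genes Alox5ap (5.04, SE 0.35) and Alox5 (at least 7-fold), which leukocytes express too. Sh2d7, a signalling adaptor, was at least 5.29-fold higher. Ionocyte-like markers were higher in 11 of 12 and lower in 0 (median 2.47, or 2.07). Hepacam2 read 11.43, 10.46, 10.55 and 10.89 in titled GFP+ and 6.35, 5.79, 5.58 and 5.89 in titled GFP-, and was higher in 4 of 4 pools (4.93, SE 0.13, adjusted p = 1.98e-08). The transcription factor Foxi1 (4.44, SE 0.39) and the chloride channel Cftr (3.28, SE 0.42) had pool 2 lowest in titled GFP+, as did Hepacam2. Stap1 was higher at 4.08 (SE 0.20).

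**Figure D3:**
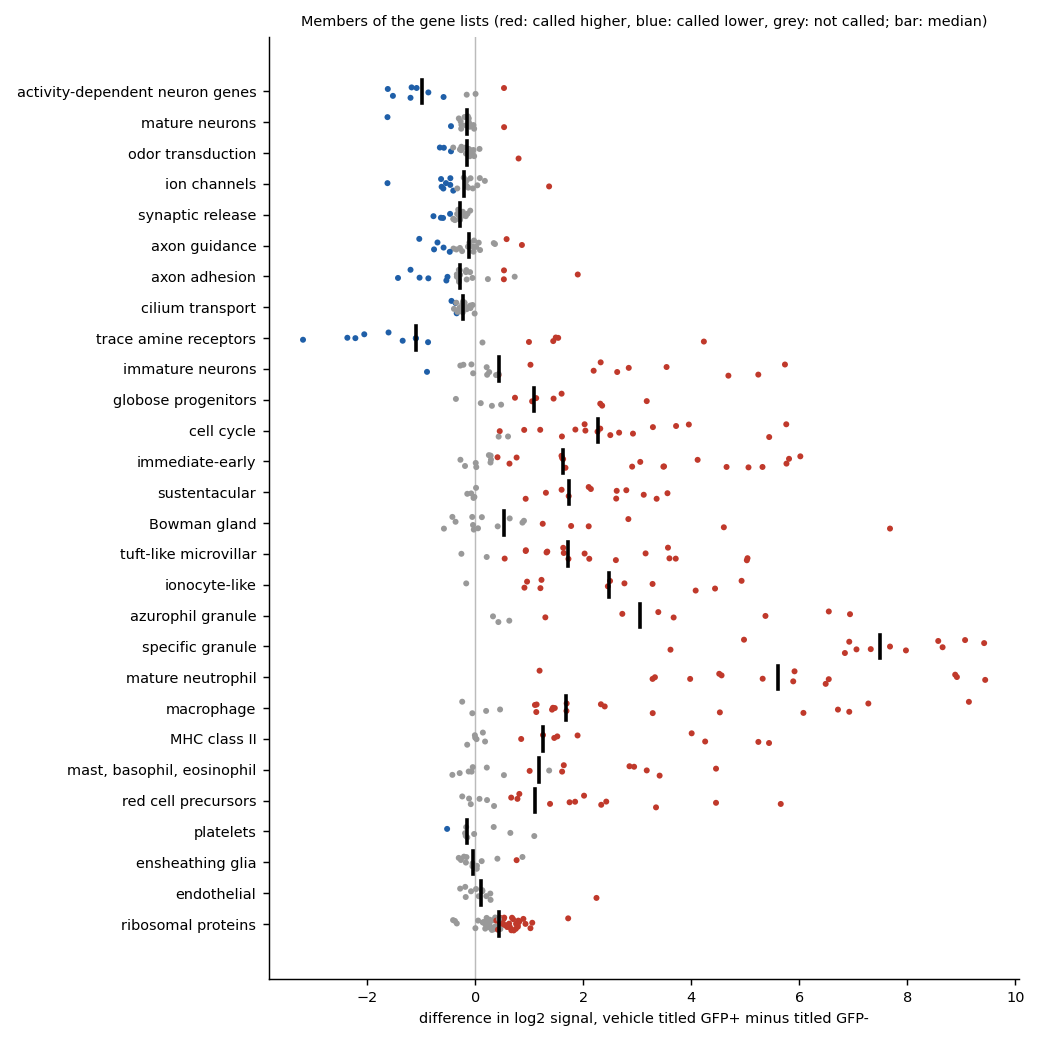
Difference in log2 signal (horizontal axis, vehicle titled GFP+ minus titled GFP-) of the measured members of 28 gene lists, one point per gene, coloured by call, with the list's median as a black bar. The activity-dependent list has its median at -0.98, most neuronal lists sit near -0.2, and the specific granule list reaches a median of 7.5.

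The specific granule and mature neutrophil lists had the highest medians of all lists. Shares over all probe sets were 10.9% higher and 10.2% lower. Neutrophils fill azurophil granules first, at the promyelocyte stage, then specific and gelatinase granules, and last make the transcripts of circulating cells. Of 10 azurophil stage genes 7 were higher (median 3.06, mean level 8.10 to 8.52 against 4.87 to 5.31), of 12 specific granule genes 12 (median 7.5, 12.99 to 13.73 against 5.67 to 6.47) and of 14 mature neutrophil genes 14 (median 5.60, 10.69 to 11.62 against 5.46 to 5.99), and 0 were lower. With the limits, the medians were 1.84, 7.03 and 4.83, and the difference between the stages was not tested. Mpo, myeloperoxidase, read 13.23, 13.37, 13.30 and 13.88 in titled GFP+ and 6.87, 5.97, 6.32 and 6.88 in titled GFP- (6.94, SE 0.31), and neutrophil elastase, Elane, was higher at 6.55 (SE 0.30). Ctsg, cathepsin G of the same granules, was at least 3.6-fold higher, at 6.60 to 8.12 in titled GFP+ and above background in no titled GFP- library. Chil3 of specific granules read 15.23 to 16.13 against 6.84 to 7.96, and the gelatinase Mmp9 was at least 142-fold higher. Mmp9, Stfa2l1 (at least 61.1-fold) and Cxcr2 (at least 26.1-fold) were above background in no titled GFP- library.

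Other blood lineages had smaller medians than the mature neutrophil list. Their counts stand against 10.9% of all probe sets called higher and 10.2% called lower. The medians were 1.25 for MHC class II, 0.63 for B and plasma cells and 0.65 for T and NK cells. With the limits each of these was 0.00. In these lists 6 of 15, 14 of 18 and 16 of 20 genes were above background in no library of a group. Of 21 macrophage and monocyte markers 17 were higher and 0 lower (median 1.69, or 1.47 with the limits), including the monocyte antigen Ly6c2 at 9.14 (SE 0.30), the myeloid transcription factor Spi1 at 7.28 (SE 0.37) and Fcer1g, an Fc receptor signalling chain, at 6.71 (SE 0.44). Ly6c1, outside that list, and fibronectin, Fn1, which is in the fibroblast list, were higher at 8.90 (SE 0.36) and at least 151-fold. Of 15 genes of MHC class II presentation 9 were higher, and H2-Aa, H2-Ab1 and H2-Eb1 were lowest in pool 4 of titled GFP+ (11.31, 10.69 and 8.08, against up to 12.71, 12.29 and 10.48 in pool 2). Of 18 B and plasma cell markers 8 were higher. The B cell receptor chains Cd79a and Cd79b stood at 9.51 and 7.75 in the titled GFP+ library of pool 2 and at 7.02 to 7.26 and 6.30 to 6.39 in the other 3. Of 20 T and NK cell markers 8 were higher, with Il7r at 3.85 (SE 0.23) and Cd3e at least 3.01-fold, and 1 was lower: Eomes, whose difference of -0.49 (SE 0.12, adjusted p = 0.0148) had adjusted p = 0.0643 without pool 2 and 0.0712 without pool 4.

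Of 16 mast cell, basophil and eosinophil markers 8 were higher (median 1.19, or 0.00 with the limits). As before, 10.9% of all probe sets were called higher and 10.2% lower. Hdc, which makes histamine, was higher at 4.46 (SE 0.34), and the mast cell protease Cpa3 at 3.41 (SE 0.34). Prg2, eosinophil major basic protein, varied between pools, at 8.85, 7.79, 9.98 and 9.12 in titled GFP+ against 5.75 to 6.17 in titled GFP- (2.94, SE 0.65, adjusted p = 0.00955). Red cell precursor genes were higher in 12 of 18 (median 1.10, or 0.14 with the limits). Among them were the carbonic anhydrase Car1 at 5.66 (SE 0.21), Rhag at least 9.27-fold and the anion exchanger Slc4a1 at 3.35 (SE 0.23). These 3 read highest in pool 2 of titled GFP+. Platelet genes had fewer calls: of 9, 0 were called higher and 1 lower, with a median of -0.15, or 0.00 with the limits. In that list 6 of 9 genes were above background in no library of a group, which limits the contrast with the red cell precursors. Of 28 chemokines and chemokine receptors 14 were higher and 0 lower, including the monocyte receptor Ccr2 (at least 24.3-fold) and the chemokine Ccl9 (5.88, SE 0.22). The median of that list was 0.85, or 0.30 with the limits.

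Stromal, glial and vascular markers were mostly near background in both sorts. The counts below stand against 10.9% of all probe sets called higher and 10.2% called lower. Of 13 ensheathing glia and Schwann cell markers 1 was higher (mean level 5.05 to 5.24 in titled GFP+ and at most 5.19 in titled GFP-). Of 12 endothelial markers 1 was higher, Erg, at least 2.75-fold, and of 10 horizontal basal cell markers 1, Cd44, which leukocytes share, at 5.14 (SE 0.45). Of 12 mural markers 2 were higher, including Rgs5, which stood at 14.25, 13.69, 12.95 and 14.59 in titled GFP+ and 8.24 to 9.10 in titled GFP- (5.09, SE 0.22), while the list's mean level was 4.89 to 5.36. Of 15 fibroblast markers 3 were higher, among them Fn1, at least 151-fold as given above, and Gsn at 0.82 (SE 0.14). Of 16 bone and cartilage genes 3 were higher and 1 lower, among them the osteoclast and macrophage phosphatase Acp5, at least 2.68-fold. Motile cilium genes of respiratory cells were lower in 5 of 18 and higher in 0, with 0 of each after centring on mature neuron markers. Of 14 respiratory secretory genes 3 were higher, including Scgb1c1 at 4.04 (SE 0.29) and Bpifa1 at 1.80 (SE 0.22).

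Of 21 receptor choice and chromatin regulators 2 were higher (9.52%) and 0 lower, no more than the 10.9% and 10.2% of all probe sets. Among the 2 was the nuclear envelope protein Lbr, at 11.05 to 11.43 in titled GFP+ and 9.65 to 9.99 in titled GFP- (1.49, SE 0.18, adjusted p = 0.000226). Lbr holds heterochromatin at the nuclear rim in many cells, granulocytes included, and mature olfactory neurons are known for having little of it. Of 11 genes of receptor trafficking 3 were higher (27.3%) and 1 lower (9.09%), with Reep5 at 3.23 (SE 0.17). Rgs2, a regulator of G protein signalling in that list that leukocytes also express, was at least 21.4-fold higher.

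Ribosomal protein genes were higher in 30 of 59 and lower in 0, with a median of 0.44 that was 0.07 when arrays were centred on their median, where 14 were higher and 4 lower. Rplp0 stood apart at 1.72 (SE 0.19, adjusted p = 9.87e-05) and Rps16 at 1.06 (SE 0.14). Of 19 interferon response genes 6 were higher and 2 lower. Ifitm3, an antiviral membrane protein, was at least 42.4-fold higher, and Bst2 was higher at 1.66 (SE 0.25), while Ifit1 was lower at -0.82 (SE 0.17, adjusted p = 0.00759). Irf7, a regulator of the response, was above background in 3 of 4 titled GFP+ libraries and in no titled GFP- library, too dim for a fold. Of 20 unfolded protein response genes 4 were higher (20%), Edem1 at 0.98 (SE 0.17) among them, and 3 lower (15%). Over all probe sets 10.9% were higher and 10.2% lower.

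Heat shock genes of the Hspa1 pair differed widely between pools. Hspa1a read 14.23, 14.82, 15.24 and 9.60 in titled GFP+ and 12.55, 12.57, 13.50 and 7.59 in titled GFP-, and its neighbour Hspa1b, a near-identical copy that may share its signal, 14.16, 14.81, 15.05 and 9.28 against 12.43, 12.60, 13.43 and 7.43. Pool 4 was thus far below the other pools in both sorts. Within each pool titled GFP+ was higher, and the paired differences were 1.92 (SE 0.18, adjusted p = 3.75e-05) and 1.85 (SE 0.19, adjusted p = 5.61e-05). Of 12 heat shock chaperones 5 were higher and 0 lower, against 10.9% and 10.2% of all probe sets.

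The isoamyl acetate mice gave a sort difference of their own, in pools that share no mice with the vehicle pools. Of the 2421 probe sets higher in vehicle 2176 were higher there too, which is 89.9% of the vehicle list and 82.4% of the 2640 in the odor list, and of the 2254 lower 1355 were, 60.1% and 43.1% of the 3147. In the odor comparison 11.9% of all probe sets were called higher and 14.2% lower, 26.1% in all. Both comparisons come from the same fit, with a shared estimate of spread for each probe set, so their calls are not fully independent. Among receptors the overlap was 239 of 264 higher (90.5%, and 91.9% of the odor list) and 443 of 468 lower (94.7% and 87.7%). S100a5 differed by -1.25 in odor and -1.18 in vehicle, Fxyd2 by -3.61 and -3.57, Olfr1507 by 8.42 and 8.49 and Olfr309 by -6.22 and -5.96.

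The difference between the 2 sort differences was called by limma for 0 of 22206 probe sets, and 1092 (4.92%) had an unadjusted p below 0.05, as did 93 of the 1080 receptors (8.61%). Olfr170 and Olfr213 were the 2 receptors called in opposite directions. Olfr170 read 11.68, 11.20, 10.87 and 10.66 in vehicle titled GFP+ and 10.07, 9.65, 10.82 and 10.10 in titled GFP-. The difference was 0.94 (SE 0.25, limma adjusted p = 0.0239). Its adjusted p was 0.0525 with the 8 vehicle arrays alone, 0.113 without pool 1 and 0.11 without pool 2. In odor it was -2.36 (SE 0.25, adjusted p = 7.64e-05), between -1.96 and -2.86 in all 4 pools. The difference between the exposures, -3.30 (SE 0.35), had adjusted p = 0.0758. It was 0.289, 0.282 and 0.207 without vehicle pool 1, 2 or 4, 0.0232 without pool 3, 0.000416 without the pool block and 0.00502 to 0.0923 under the other settings. Olfr213 was 1.09 in vehicle (SE 0.26, adjusted p = 0.0152, and 0.0641, 0.0555 and 0.0724 without pool 1, 3 or 4) and -1.51 in odor, and its test of the difference gave adjusted p = 0.229.

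**Figure D4:**
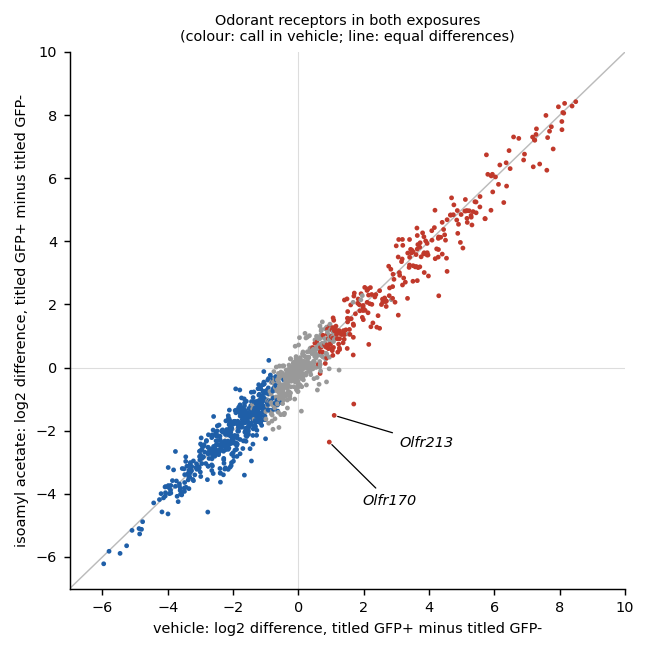
Difference in log2 signal between titled GFP+ and titled GFP- of the 1080 odorant receptors in vehicle (horizontal axis) and in isoamyl acetate (vertical axis), coloured by the call in vehicle. The grey diagonal marks equal differences. Receptors lie along it from -5.96 to 8.49 in vehicle, with Olfr170 at 0.94 and -2.36 and Olfr213 at 1.09 and -1.51.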

How the data were processed

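Biotinylated cRNA from 50 to 100 ng of total RNA was hybridised to Clariom S arrays, as the labels' protocols state. What the authors deposited is a log2 signal for each probe set on each array. The submitters' processing notes name Affymetrix Expression Console, with background correction and normalization not given in the sources used here. Of 28846 probe sets, 6640 controls were left out, which left 22206 for all tests, 19572 of them with 1 gene symbol in the platform annotation (2634 with none, 19505 genes). A gene with several probe sets (55 genes) is represented by the one with the highest mean.

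limma 3.58.1 (R 4.3.3; lmFit and eBayes) was fitted to all 16 arrays with the pool as a block, since 24 mice sorted by 3 make 8 pools for 16 libraries and, in both exposures, libraries of the same number deviated together (r = 0.22 to 0.50). Adjusted p-values are limma's, Benjamini-Hochberg over the 22206 probe sets, with a threshold of 0.05. All such p-values in the text come from this fit unless a setting is named. The code was tested on simulated data. Where a gene was above background (the array's median negative control) in no library of a group, its fold is a lower limit, the brighter group's mean against the higher of background and the dim signal per array. Of the 148 genes named by rule, 27 were above background in no library of 1 group and 30 in only some; where the text gives no count for these, the titled GFP- libraries are the ones partly below.

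Named genes were S100a5, up to 4 called members each way of each gene list, the 10 largest changes each way among receptors and among other genes without overlap, and the extreme pairs and cluster members of receptors. Omp and Eif2s3y fall outside this rule. The lists and the members were chosen with earlier results of these data known, so their counts and medians are descriptions. Alternatives were other scalings, other variance models, a filter on dim probe sets, no block and leaving out each vehicle pool. Names, gene order and promoter windows come from RefSeq tables (GRCm38.p6). Promoters were aligned globally with scores of 1, -1 and -2 for a match, a mismatch and a gap base. Precision rests on 4 pools a group.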

Additional observations from a re-analysis of the deposited data

Results flagged for a closer look

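Among the 149 genes followed in the text, 298 groups of 4 vehicle libraries were checked for a library whose gap to its nearest neighbour exceeded Dixon's 95% critical share of the group's range, which chance gives in about 5% of groups. There were 17 such libraries, in 16 genes. The heat shock genes had the widest gaps: pool 4 stood at 7.59 for Hspa1a in titled GFP- (others 12.55 to 13.50), and at 9.28 and 7.43 for Hspa1b in titled GFP+ and titled GFP- (others from 14.16 and from 12.43). In the titled GFP+ library of pool 2, Cd79a was at 9.51 (others 7.02 to 7.26) and Cd79b at 7.75 (others 6.30 to 6.39), and Nhlh1 was at 10.26 (others 9.64 to 9.69). In the titled GFP+ library of pool 3, Btg2 was low at 10.60 (others 12.00 to 12.12), Alox5ap at 12.02 (others 12.67 to 12.73), Chil3 at 15.23 (others 16.01 to 16.13) and Reep5 at 8.29 (others 8.49 to 8.53). Bpifa1 was low at 6.59 in the titled GFP+ library of pool 1, and Avp was high at 6.79 in that of pool 4. Among titled GFP- libraries, Olfr1446 (3.19), Bpifb3 (6.85) and Rplp0 (9.82) were low in pool 1, Olfr1102 (9.86) was low in pool 2 and Taar4 (11.04) was high in pool 3.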

How the results depend on the processing

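Called probe sets, 4675 in the main fit, numbered 3851 with no replicate block, 4362 with the vehicle arrays alone, 6113 after quantile normalization, 4281 after mature marker centring, 4915 with an intensity trend and 3306 to 3734 without 1 vehicle pool. With each array centred on its median they numbered 16865, of which 15005 were lower, because that centring moves the median difference from -0.13 to -0.50. Receptors called higher ranged from 236 to 251 and lower from 423 to 441 without 1 pool, and from 242 to 302 and 424 to 604 under the other settings. S100a5 stayed lower and called in all settings, at -1.55 (median centring) to -0.95 (mature marker centring) and at -1.09 to -1.29 without 1 pool. The test between exposures called 0 probe sets in the main fit, 1 with no replicate block, 1 with median centring, 2 with an intensity trend, and 0 to 1 without a vehicle pool; the 1 was Olfr170 in each case and the 2 were Olfr170 and Olfr213.

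The 147 named genes other than S100a5 kept their direction in all settings. Without the replicate block 11 lost their call: Lrrc3b, Kirrel2, Kirrel3, Kcng1, Kcnh2, Epha7, Olfr213, Ifit1, Hspa1a, Hspa1b and Olfr480 (adjusted p from 0.0502 to 0.424), and the block changed no other call among them. Median centring ended the calls of Kirrel3 and Olfr170, and mature marker centring those of Ano2, Kcnh2, Sema7a, Eomes, Olfr479 and Olfr480. With 4 pools a group and unknown normalization, small differences near the shift of the mature neuron markers have no settled sign relative to neurons, and dim receptors have only limits.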
